A study of Mus musculus with 12 samples.

Results

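The genes described here encode IkB proteins and ubiquitin-editing regulators of NF-kB. They are 3 classical IkB proteins (Nfkbia, Nfkbib and Nfkbie), 3 atypical nuclear IkB proteins (Nfkbid, Nfkbiz and Bcl3), and 4 genes of ubiquitin editing (Tnfaip3, Tnip1, Tnip3 and Cyld). They were listed by name for their role in the pathway, with no threshold on their values, and all 10 were found among the 24421 gene symbols of the count table. RNA sequencing was carried out on bone marrow-derived macrophages (BMDMs) of wild-type C57BL/6 mice, grown from bone marrow for 5 days in 100 ng/mL M-CSF with a medium change on day 3. The cells of mice A, B and C were each divided over 4 groups, giving 1 library per mouse and group and 12 libraries in all. BMDMs received either DMSO (5% per the labels) or 5.0 µM I-BET151 (iBET), and either ovalbumin alone (Ova) or insoluble immune complexes (IC) of ovalbumin with a polyclonal rabbit anti-ovalbumin antibody, for 4 hours. The groups are DMSO with Ova, iBET with Ova, DMSO with IC and iBET with IC. For the iBET groups the labels give no DMSO, although the study's methods dissolve the drug in it. By the labels, drug and solvent dose therefore cannot be told apart in the iBET comparisons. The labels say that drug and stimulus were given together, whereas the study's methods place the drug first, so the order of addition is uncertain.

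NF-kB dimers are held in the cytoplasm by the classical IkB proteins, which are phosphorylated by the IKK complex, ubiquitinated and degraded when a receptor such as an activating Fc gamma receptor or a Toll-like receptor is engaged. Freed NF-kB then enters the nucleus and switches on, among many inflammatory genes, its own inhibitors, so that IkB-alpha and the ubiquitin-editing enzyme A20 form a negative feedback loop. The atypical IkB proteins act in the nucleus on DNA-bound NF-kB, where they can repress or assist its target genes. I-BET151 is a small molecule that occupies the bromodomains of the BET proteins, the readers of acetylated histones that help to start and sustain transcription.

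The libraries held 7549849 to 17387639 counts. Rn45s, the ribosomal RNA precursor, took 1.41 to 7.83% of the counts in 11 libraries and 77.4% in the DMSO with Ova library of mouse A, which left 1768133 counts there against 7247830 to 16899110 elsewhere. That library stands apart, and the calls of the 10 genes described that rest on it are given with and without it. Calls of other genes, and the shares of all genes called, come from all 12 libraries. All 10 genes of the macrophage marker list were measured in every group, with a summed level of 6802 to 9385 CPM per library (a gene's count over the scaled size of its library, the unit of every level given here), and the summed dendritic cell, lymphocyte, stromal, erythroid and mast cell markers reached at most 2.57 CPM, with Nkg7 and Cpa3 among those at 0 throughout. Neutrophil and granulocyte precursor markers summed to 9.76 to 56.3 CPM, with ranges that overlapped between all 4 groups, and their part in the results was not tested. In bulk RNA of this kind, fewer cells of a type and less RNA per cell cannot be told apart.

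Before the values, the DNA just upstream of a RefSeq start of several of the genes is shown, because NF-kB acts on its inhibitors through their promoters. RefSeq windows (GRCm38.p6), which run from 250 bases before to 50 bases after a transcription start, matched 9 of the 10 genes and not Nfkbiz. The 10-base NF-kB consensus, searched on both strands with overlapping matches kept, was present in a window of 8 of these 9 genes, the exception being Nfkbib. Over the whole table it was found in 8.46% of 32851 windows and for 9.55% of gene symbols, and it was chosen with these sequences in view. Other forms of the motif, each found less often over all genes, matched fewer of the 9: one matched 6 (6.31% of all symbols) and the strictest matched 2, Nfkbia and Cyld (0.466%). Each stretch below is 60 bases read 5′ to 3′ on the strand of its gene, none overlaps an annotated exon, and the capitals mark one match. The Nfkbia stretch is chr12:55492648-55492707 (minus strand), with the match at -29 to -20, where -1 is the last base before the start. The Nfkbie stretch is chr17:45555569-45555628 (plus strand), with the match at -106 to -97. The Tnfaip3 stretch is chr10:19015411-19015470 (minus strand), with the match at -12 to -3, and lies within the annotated gene. The Tnip1 stretch is chr11:54962962-54963021 (minus strand), with the match at -56 to -47, the last of several overlapping ones. The Tnip3 stretch is chr6:65590319-65590378 (plus strand), with the match at -54 to -45, and lies within the annotated gene upstream of a RefSeq start. The Cyld stretch is chr8:88696848-88696907 (plus strand), with the match at -155 to -146.
Nfkbia: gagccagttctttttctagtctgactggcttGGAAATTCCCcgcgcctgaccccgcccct
Nfkbie: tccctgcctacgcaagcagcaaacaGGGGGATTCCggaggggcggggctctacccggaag
Tnfaip3: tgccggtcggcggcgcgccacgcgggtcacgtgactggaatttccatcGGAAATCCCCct
Tnip1: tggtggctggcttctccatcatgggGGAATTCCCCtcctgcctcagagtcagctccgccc
Tnip3: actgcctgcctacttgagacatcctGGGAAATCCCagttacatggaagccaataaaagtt
Cyld: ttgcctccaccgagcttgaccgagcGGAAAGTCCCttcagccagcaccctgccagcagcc
Genes that rose with IC and Cyld, which did not pass the test in any comparison, both carry a match, and so do genes that rose and genes that fell with iBET. In the window of Bcl3 the match lies after the start, at 3 to 12, and the Nfkbid matches lie at -226 to -217 and -181 to -172. A match is a description of these letters and not evidence that NF-kB binds there.

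IC stimulation was compared with Ova first in DMSO and then in iBET, to ask how the 10 genes respond to Fc gamma receptor cross-linking. In DMSO, 4 of the 10 genes rose (Tnfaip3 2.54-fold, Nfkbia 2.19-fold, Nfkbie 1.86-fold and Tnip1 1.84-fold) and none fell, by edgeR's quasi-likelihood test with Benjamini-Hochberg adjustment over 11468 genes at an adjusted p under 0.05. Of all genes tested, 0.732% passed as higher, 0.488% as lower and 1.22% in either direction. In iBET, 4 genes again rose (Tnfaip3 2.78-fold, Tnip3 2.14-fold, Nfkbia 1.92-fold and Nfkbie 1.86-fold) and none fell, beside 0.314% of all genes higher, 0.0349% lower and 0.349% in either direction. The libraries of the 2 groups did not overlap, with IC higher, for 9 of 10 genes in DMSO (all but Cyld, against 7.8% of all genes) and for 9 of 10 in iBET (all but Nfkbib, against 9.53%). The median log2 fold change over the 10 genes was 0.77 in DMSO and 0.76 in iBET, where that of all genes was -0.01 in each. Without the shallow library the same 4 genes passed in DMSO, by log2 differences of 1.02 for Nfkbia, 0.83 for Nfkbie, 1.32 for Tnfaip3 and 0.93 for Tnip1, and Bcl3 and Tnip1 joined the 4 in iBET (adjusted p = 0.0176 and 0.037). Without mouse B none of the 10 passed in either arm, nor did any other gene of the table.

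iBET was then compared with DMSO under each stimulus, and here the genes divided. Nfkbiz, Nfkbie and Nfkbia were higher with iBET under both stimuli, whereas Bcl3, Tnip3 and Tnfaip3 were lower under both, and Tnip1 was lower under IC. With Ova, 3 genes rose and 3 fell by the same test, in a table where 17.1% of all genes rose and 14.2% fell. With IC, 3 rose and 4 fell, where 19% of all genes rose and 15.8% fell. The iBET comparisons thus called a large part of the transcriptome, 31.3% with Ova and 34.8% with IC. Nfkbib, Nfkbid and Cyld passed the test in none of the 4 comparisons. Without the shallow library the same 6 genes passed with Ova, by log2 differences of 0.52 for Nfkbia, 0.64 for Nfkbie, 1.23 for Nfkbiz, -1.63 for Bcl3, -0.61 for Tnfaip3 and -1.21 for Tnip3. Without mouse B, 3 genes passed with Ova (Nfkbie, Nfkbiz and Tnip3) and 3 with IC (Nfkbie, Nfkbiz and Tnip1).

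**Figure D1:**
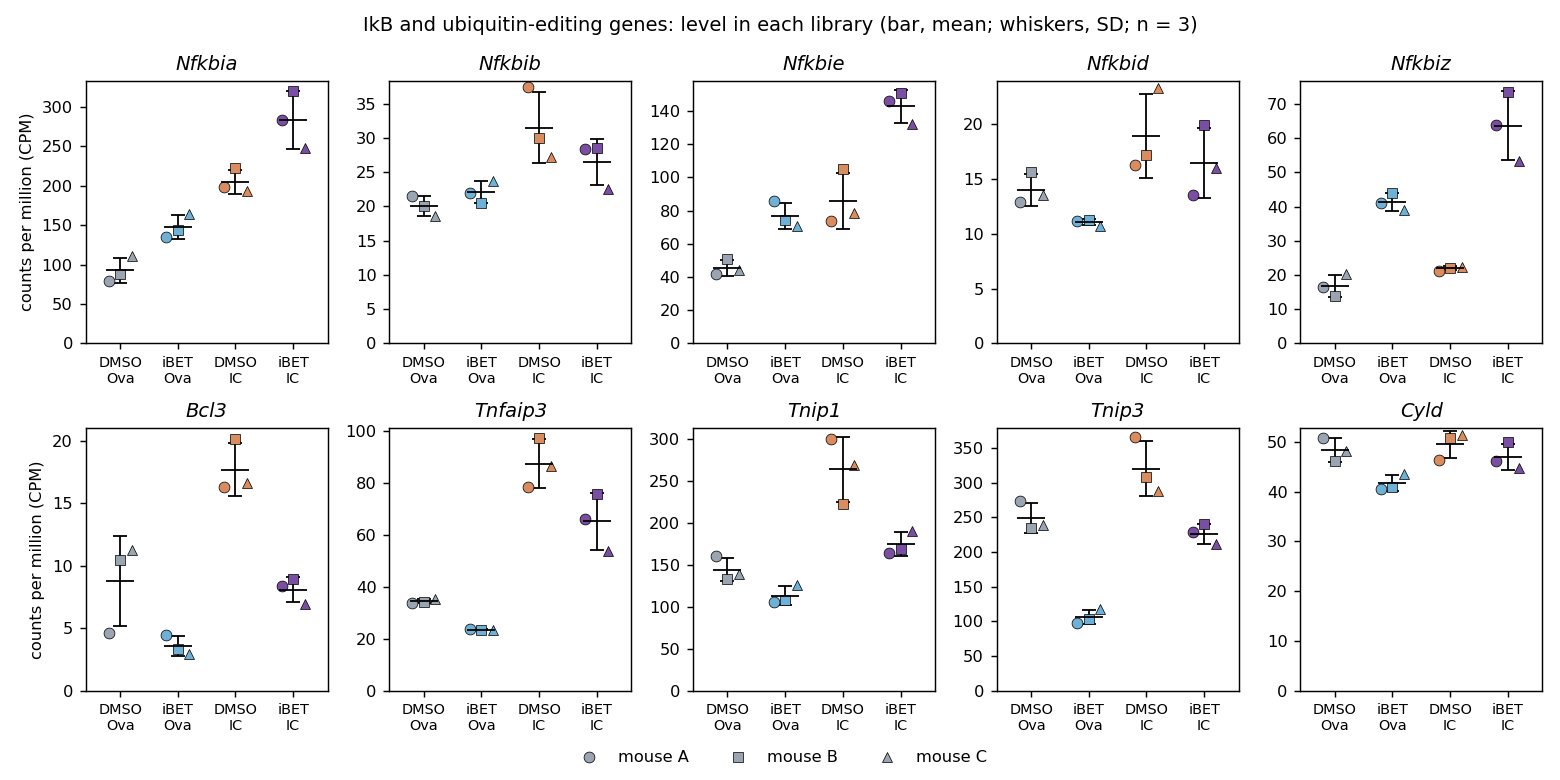
Level of each of the 10 genes in CPM (vertical axis, from 0) in the 12 libraries of the 4 groups (horizontal axis); points are libraries, their shape gives the mouse, the long bar is the mean and the whiskers the SD of 3 libraries. Nfkbiz runs from 14.0 to 20.2 CPM in DMSO with Ova up to 53.3 to 73.6 CPM in iBET with IC, whereas Tnip3 is lowest in iBET with Ova, at 97.2 to 117 CPM.

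**Figure D2:**
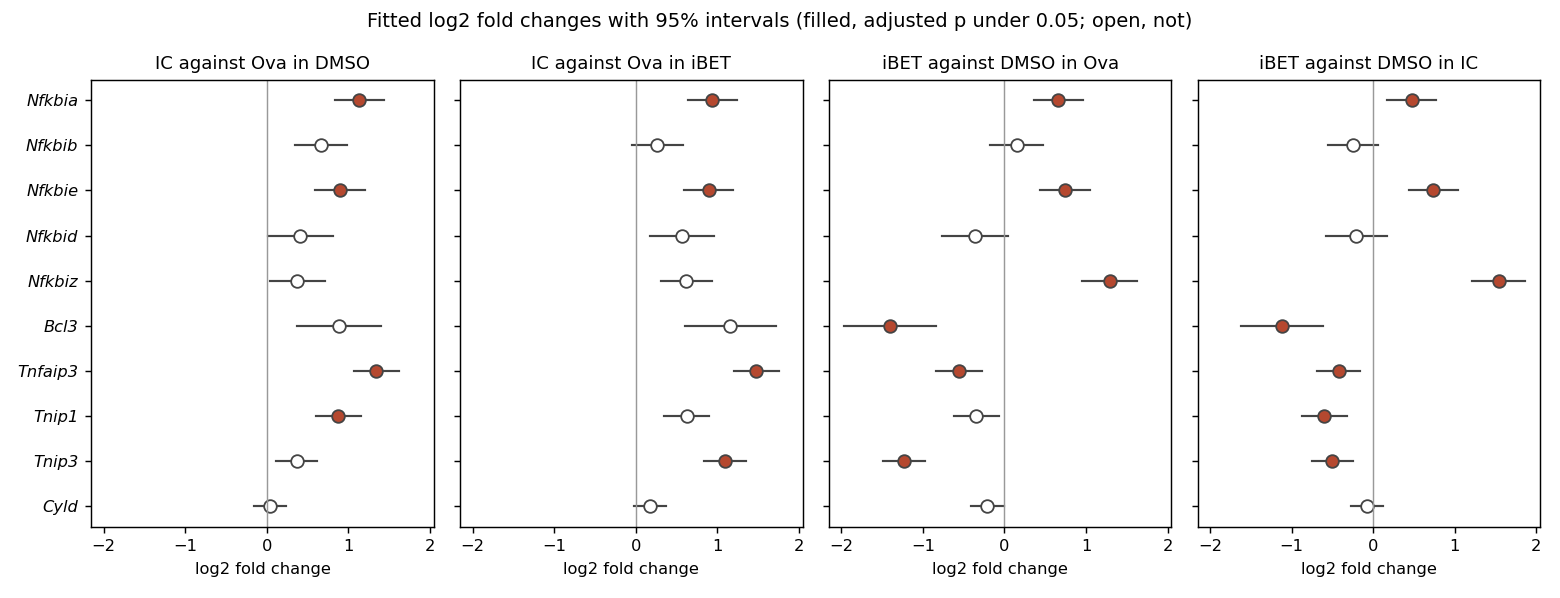
Fitted log2 fold change (horizontal axis) of each gene (vertical axis) in the 4 comparisons, with its 95% interval; filled points passed an adjusted p under 0.05 and open points did not. All 10 points of both IC panels lie above 0, while in the 2 iBET panels Nfkbia, Nfkbie and Nfkbiz lie above 0 and Bcl3, Tnfaip3, Tnip1 and Tnip3 below it.

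Among the classical IkB proteins, Nfkbia (chromosome 12, 55489410 to 55492647 on the minus strand of GRCm38) encodes IkB-alpha, the inhibitor that NF-kB resynthesises first. In mice A, B and C it stood at 79.6, 88.3 and 110.3 CPM in DMSO with Ova, 135, 143 and 164 CPM in iBET with Ova, 198, 222 and 194 CPM in DMSO with IC, and 283, 321 and 247 CPM in iBET with IC. The 4 groups followed each other in that order with no overlap at any step. IC raised Nfkbia by 1.13 on the log2 scale in DMSO (SE 0.14, adjusted p = 0.00207), and the rise in iBET was 0.94 (SE 0.14, adjusted p = 0.00935). iBET raised it by 0.66 with Ova (SE 0.14, adjusted p = 0.00329) and by 0.47 with IC (SE 0.14, adjusted p = 0.018). Each of these differences had its sign in all 3 mice, and the highest levels were found in cells given both iBET and IC. The call for IC in iBET was lost without mouse B of either iBET group or mouse A of iBET with Ova (adjusted p up to 0.0858), and that for iBET under IC without mouse A or C of DMSO with IC or mouse B of iBET with IC (up to 0.0818).

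Nfkbie (chromosome 17, 45555703 to 45563169, plus strand) encodes IkB-epsilon, a slower inhibitor that retains RelA- and c-Rel-containing dimers. It measured 41.6, 50.8 and 44.5 CPM in DMSO with Ova, 85.6, 74.2 and 70.6 CPM in iBET with Ova, 73.6, 105 and 78.7 CPM in DMSO with IC, and 146, 151 and 132 CPM in iBET with IC, for mice A, B and C. All DMSO with Ova libraries were below the rest and all iBET with IC libraries above it, while iBET with Ova and DMSO with IC overlapped. The rise with IC was 0.90 in DMSO (SE 0.14, adjusted p = 0.0083), next to 0.89 in iBET (SE 0.14, adjusted p = 0.0118), on the log2 scale. iBET raised it by 0.74 under either stimulus (adjusted p = 0.0018 under Ova, 0.0013 under IC). The difference between the 2 IC responses was -0.00, with a 95% interval of -0.42 to 0.41. The call for IC in iBET was lost without mouse B or C of iBET with Ova or mouse A or B of iBET with IC (adjusted p up to 0.0941).

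Nfkbib (chromosome 7, 28758251 to 28767512, minus strand) encodes IkB-beta, the classical inhibitor least tied to the feedback loop. It ranged from 18.7 to 21.6 CPM in DMSO with Ova, 20.5 to 23.7 CPM in iBET with Ova, 27.3 to 37.4 CPM in DMSO with IC and 22.5 to 28.6 CPM in iBET with IC. Its log2 difference with IC in DMSO was 0.66 (SE 0.15, adjusted p = 0.0549), which passed with mouse as a block (adjusted p = 0.0256) and did not with the block once the shallow library was left out (adjusted p = 0.0625). It passed in 6 of the 11 settings other than leaving out 1 library or 1 mouse, DESeq2 among them (adjusted p = 0.00788). In the fits that left out 1 library or 1 mouse it never passed. Nfkbib exons overlap those of Ccer2 and Sirt2 on the opposite strand, and whether the counting used strand is not stated in the sources used here, so its counts may include reads of these neighbours.

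Among the atypical nuclear IkB proteins, Nfkbiz (chromosome 16, 55811375 to 55838899, minus strand) encodes IkB-zeta, a nuclear cofactor needed for secondary response genes such as Il6. Its levels in mice A, B and C were 16.4, 14.0 and 20.2 CPM in DMSO with Ova, 41.2, 44.1 and 38.9 CPM in iBET with Ova, 21.3, 22.1 and 22.4 CPM in DMSO with IC, and 64.0, 73.6 and 53.3 CPM in iBET with IC. No groups overlapped, and both iBET groups lay above both DMSO groups. iBET raised Nfkbiz by 1.29 on the log2 scale with Ova (2.44-fold, SE 0.15, adjusted p = 6.6e-05) and by 1.54 with IC (2.90-fold, SE 0.15, adjusted p = 1.1e-05). The log2 difference with IC was 0.37 in DMSO (SE 0.15, adjusted p = 0.359), while iBET-treated cells gave 0.62 (SE 0.14, adjusted p = 0.128), neither past the threshold. The difference in iBET passed in DESeq2 (adjusted p = 0.0192). In all, it passed in 4 of the 11 settings other than leaving out 1 library or 1 mouse, and in no fit that left out either.

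Bcl3 (chromosome 7, 19808462 to 19822770, minus strand) encodes a nuclear protein that binds p50 and p52 homodimers and holds them on DNA. It measured 4.62, 10.4 and 11.3 CPM in DMSO with Ova, 4.48, 3.31 and 2.93 CPM in iBET with Ova, 16.3, 20.1 and 16.6 CPM in DMSO with IC, and 8.38, 8.92 and 6.95 CPM in iBET with IC. Under either stimulus the iBET libraries lay below the DMSO libraries, although with Ova the value of mouse A in DMSO, which rests on 9 counts in the shallow library, was close to its iBET value. iBET lowered Bcl3 with Ova by a log2 difference of -1.40 (SE 0.26, adjusted p = 0.00147) and with IC by one of -1.12 (SE 0.23, adjusted p = 0.00265). Without the shallow library the difference with Ova was -1.63 (adjusted p = 0.000124), and without mouse B or C entirely it missed the threshold (adjusted p up to 0.0798). With IC, Bcl3 differed from Ova by 0.88 in DMSO (SE 0.24, adjusted p = 0.113), or 0.68 without the shallow library, on the log2 scale. In iBET the difference was 1.16 (SE 0.25, adjusted p = 0.112), and every IC library lay above every Ova library within each drug arm. In DESeq2 both passed (adjusted p = 0.0377 in DMSO and 0.00631 in iBET). Of the 10 settings other than leaving out 1 library or 1 mouse, Bcl3 passed in 3 in DMSO and in 5 in iBET. Its exons overlap those of Gm16175 on the other strand, which leaves the same uncertainty as for Nfkbib.

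Nfkbid (chromosome 7, 30421732 to 30428746, plus strand) encodes IkB-NS, a nuclear inhibitor first known from T cell selection. It ranged from 12.8 to 15.6 CPM in DMSO with Ova, 10.7 to 11.3 CPM in iBET with Ova, 16.2 to 23.3 CPM in DMSO with IC and 13.5 to 19.9 CPM in iBET with IC. The log2 difference with IC was 0.41 in DMSO (adjusted p = 0.401) and 0.57 in iBET (adjusted p = 0.362), and that with iBET was -0.36 with Ova (adjusted p = 0.158) and -0.21 with IC (adjusted p = 0.388). None of these passed the test, which does not show that the gene was unaltered.

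Among the ubiquitin-editing genes, Tnfaip3 (chromosome 10, 19000910 to 19015657, minus strand) encodes A20, which trims activating ubiquitin chains from RIPK1 and TRAF6 and marks RIPK1 for degradation. It stood at 33.9, 34.1 and 35.2 CPM in DMSO with Ova, 23.7, 23.3 and 23.4 CPM in iBET with Ova, 78.5, 97.5 and 86.7 CPM in DMSO with IC, and 66.3, 75.7 and 53.7 CPM in iBET with IC. The groups did not overlap at any step from iBET with Ova up to DMSO with IC. IC raised Tnfaip3 by 1.34 on the log2 scale in DMSO (SE 0.13, adjusted p = 0.000676), rising by 1.48 in iBET (SE 0.13, adjusted p = 0.000304), the largest IC response of the 10 genes in each arm. iBET lowered it, by log2 differences of -0.56 with Ova (SE 0.13, adjusted p = 0.00635) and -0.42 with IC (SE 0.12, adjusted p = 0.0178). The call with IC was lost on leaving out mouse B of DMSO with IC or mouse C of iBET with IC, where the adjusted p reached 0.0745, and with the compared groups alone in the fit (adjusted p = 0.0556). Both iBET calls were also lost without mouse B or C entirely (adjusted p up to 0.066 with Ova and 0.173 with IC).

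Tnip1 (chromosome 11, 54910785 to 54962917, minus strand) encodes ABIN-1, a ubiquitin-binding protein that brings A20 to its substrates. In mice A, B and C it measured 160, 133 and 139 CPM in DMSO with Ova, 105, 108 and 126 CPM in iBET with Ova, 300, 222 and 268 CPM in DMSO with IC, and 163, 169 and 190 CPM in iBET with IC. As for Tnfaip3, the order ran from iBET with Ova to DMSO with IC without overlap. Tnip1 rose with IC in DMSO by 0.88 on the log2 scale (SE 0.13, adjusted p = 0.00552). In iBET the difference was 0.62 (SE 0.13, adjusted p = 0.0776), which passed once mouse entered as a block, with the shallow library (adjusted p = 0.0213) or without it (0.0104). With iBET it fell under IC, by a log2 difference of -0.60 (SE 0.13, adjusted p = 0.00304). Under Ova the difference was -0.35 (SE 0.13, adjusted p = 0.0578), which passed with the block (adjusted p = 0.0299) but not with the block and without the shallow library (adjusted p = 0.0528). In 9 of the 11 settings other than leaving out 1 library or 1 mouse it passed, DESeq2 among them (adjusted p = 0.0275). It passed in 3 of 12 fits without 1 library and in 0 of 3 without 1 mouse.

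Tnip3 (chromosome 6, 65525313 to 65634040, plus strand) encodes ABIN-3, a further A20-binding protein. It measured 273, 234 and 239 CPM in DMSO with Ova, 97.2, 103 and 117 CPM in iBET with Ova, 365, 309 and 287 CPM in DMSO with IC, and 228, 240 and 211 CPM in iBET with IC. The iBET with Ova libraries were the lowest, at less than any other library of the gene, and those of iBET with IC overlapped DMSO with Ova. iBET lowered Tnip3 by a log2 difference of -1.23 with Ova (SE 0.12, adjusted p = 1.3e-05) and of -0.50 with IC (SE 0.12, adjusted p = 0.00521). IC raised it by 1.10 in iBET (SE 0.12, adjusted p = 0.00118), whereas in DMSO the log2 difference was 0.37 (SE 0.12, adjusted p = 0.182). With 1 surrogate variable the DMSO difference passed (adjusted p = 0.0204), and in no other setting.

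Cyld (chromosome 8, 88697028 to 88751945, plus strand) encodes a deubiquitinase that removes linear and K63-linked chains and restrains NF-kB in resting cells. It was the flattest of the 10 genes, at 46.2 to 50.9 CPM in DMSO with Ova, 40.5 to 43.6 CPM in iBET with Ova, 46.5 to 51.4 CPM in DMSO with IC and 44.8 to 50 CPM in iBET with IC. Its largest log2 difference in the 4 comparisons was -0.21, with iBET under Ova (95% interval -0.41 to -0.01, adjusted p = 0.107).

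Whether iBET altered the IC response itself was tested as the difference between the 2 responses (iBET minus DMSO). None of the 10 genes passed, nor did any of the 11468 genes in edgeR's test, where 292 genes (2.55%) had an unadjusted p under 0.05. Under the other settings the whole-table count reached at most 6, in DESeq2 with mouse as a block. Tnip3 alone among the 10 fell in that unadjusted range, with an IC response larger in iBET by 0.73 on the log2 scale (95% interval 0.37 to 1.09, adjusted p = 0.997). The difference was 0.81, 0.81 and 0.59 in mice A, B and C. The adjusted p for Tnip3 ranged from 0.0695 to 1 over the other settings, and without the shallow library the difference was 0.69. For Nfkbia the difference was -0.19 (95% interval -0.61 to 0.23) and for Tnfaip3 0.13 (95% interval -0.25 to 0.52), and the intervals of the other 9 genes all contained 0. Tnip1 passed in DMSO and not in iBET, but its 2 IC responses differed by -0.25 (95% interval -0.64 to 0.14, adjusted p = 1), so no difference between them was shown.

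**Figure D3:**
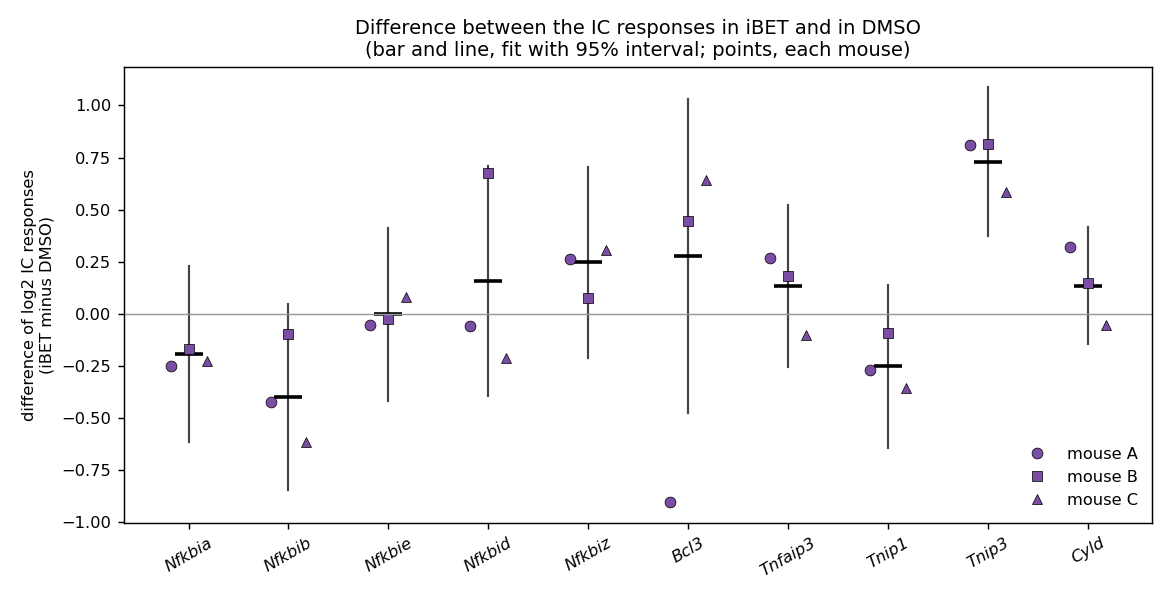
Difference between the log2 IC responses in iBET and in DMSO (vertical axis) for the 10 genes (horizontal axis); the bar and line give the fit with its 95% interval, and the points give the 3 mice. Tnip3 is the one gene whose interval, 0.37 to 1.09, lies clear of 0, and the low point of Bcl3 is mouse A at -0.90.

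Levels of different genes were compared per kilobase of exon, with each CPM divided by the union of the gene's annotated exons or by its median coding transcript. On the union scale Nfkbia was the most abundant of the 10 in every group, at 57.6 RPKM in DMSO with Ova and 176 RPKM in iBET with IC, followed by Tnip1 at 40.7 and 49.2 RPKM. Tnip3 depended on the length used, with 22.8 RPKM in DMSO with Ova over a union of 10916 bases and 158 RPKM over a transcript of 1577 bases. Nfkbiz was the lowest in DMSO with Ova on either scale and the fifth in iBET with IC, whereas Bcl3 was the lowest in both iBET groups.

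The genes whose profile over the 12 libraries was most like that of a member were found among 9428 well-covered genes by the root mean square difference of log2 CPM after centring. Nearest to Nfkbia were Ehd1 (0.204), Tnf (0.210) and Nfkbie (0.218). Nearest to Nfkbiz were Tmem2 (0.177), Sesn2 (0.214) and Tmem132a (0.218). As their choice by likeness implies, each was higher in iBET than in DMSO under both stimuli, by log2 differences of 1.30 to 1.71. Nearest to Tnfaip3 were Tlr2 (0.229), Mllt6 (0.271) and Kdm6b (0.280), and nearest to Tnip1 were Casp4 (0.165), Cflar (0.169) and Zcchc7 (0.201).

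The NF-kB proteins that these regulators act on, and the genes that NF-kB drives, were read from lists chosen with earlier results known. Of 5 subunit genes, Nfkb2 (p100, precursor of p52) and Relb rose with IC in DMSO, by 0.71 and 0.83 on the log2 scale (adjusted p = 0.0382 for each). Nfkb1 (p105) and Relb rose with IC in iBET, by 0.76 and 0.89 (adjusted p = 0.00771 and 0.0448). In iBET the Nfkb2 difference was 0.73 (adjusted p = 0.068), and in DMSO that of Nfkb1 was 0.40 (adjusted p = 0.118). Their IC responses differed between the arms by 0.02 for Nfkb2 and 0.36 for Nfkb1, and neither difference passed. With iBET, Nfkb2 and Rel rose under both stimuli, Nfkb2 by 0.52 with Ova and 0.54 with IC, and Nfkb1 fell under Ova (-0.37, adjusted p = 0.0212). Rela passed in no comparison. Of all genes, 0.732% rose with IC in DMSO and 0.314% in iBET. With iBET, 17.1% of all genes rose and 14.2% fell under Ova, and 19% rose and 15.8% fell under IC.

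Of 24 NF-kB-dependent inflammatory genes, 20 were tested. With IC, 9 rose in DMSO, those of lowest p being Sod2 (0.89, a mitochondrial superoxide dismutase) and Traf1 (1.37, a signalling adaptor), and 8 rose in iBET, those of lowest p being Cxcl2 (2.21, a neutrophil chemokine) and Icam1 (1.33, an adhesion molecule), with none lower in either arm. Of all genes tested, 0.732% rose with IC in DMSO and 0.314% in iBET. The median log2 fold change of the list was 0.96 in DMSO and 1.00 in iBET, where that of all genes was -0.01 in each. With iBET, 6 of the 20 genes were higher and 3 lower under Ova, and 7 were higher and 5 lower under IC, beside 17.1% of all genes higher and 14.2% lower under Ova and 19% and 15.8% under IC. Ier3 rose by 2.72 with Ova and 3.15 with IC, and Marcksl1 rose by 0.96 and 0.85, whereas Traf1 fell (-1.94 and -2.17) and so did the ubiquitin ligase gene Birc3 (-0.63 and -0.92), all on the log2 scale and past the threshold.

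**Figure D4:**
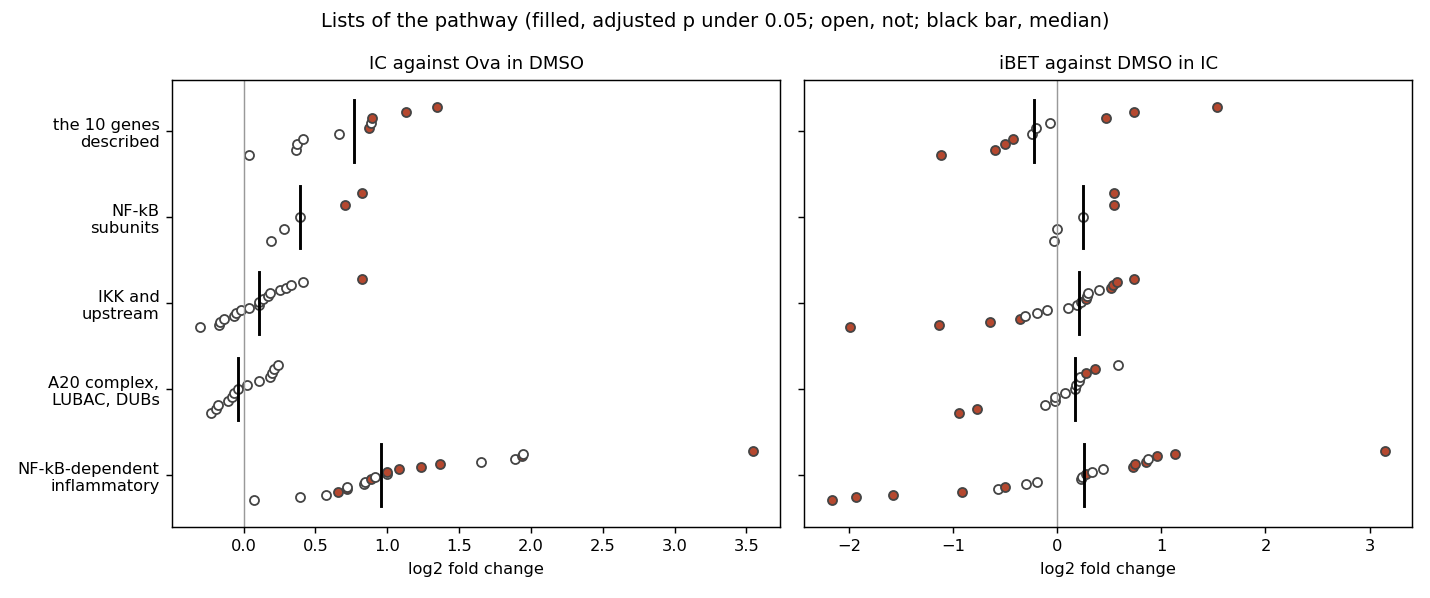
Log2 fold change (horizontal axis) of every tested gene of the 10 described and of 4 pathway lists (vertical axis) with IC in DMSO (left) and with iBET under IC (right); filled points passed an adjusted p under 0.05 and the black bar is the list's median. The medians of the 10 genes and of the inflammatory list are 0.77 and 0.96 at the left, and -0.23 and 0.26 at the right.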

How the data were processed

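The authors trimmed reads (Trim Galore), aligned them to mm10 (HISAT2) and counted them per gene (featureCounts). The deposited tables hold raw counts and normalized counts (unit signal), the latter being the raw counts divided by 1 factor per library. Raw counts were analysed with edgeR 4.0.16 in R 4.3.3 (filterByExpr with a minimum count of 10, TMM, robust quasi-likelihood fit, 1 term per group, all 12 libraries), two-sided, with Benjamini-Hochberg adjustment over the 11468 genes tested, all 10 members among them. CPM used TMM-scaled library sizes. DESeq2 1.42.0, limma 3.58.1 and sva 3.50.0 served as alternatives, and the fit was tested on simulated data.

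Same-mouse libraries came from 1 animal per the labels. Of 18 same-mouse pairs, 12 had deviations from the group means that correlated above 0.1 (median 0.263), against 6 of 36 different-mouse pairs (median -0.134). The iBET with Ova library of mouse A correlated at 0.234 and 0.271 with the DMSO libraries (Ova, IC) of mouse B. With those of mouse A it gave -0.0506 and -0.0725. That of mouse B gave 0.178 and 0.258 with mouse A, and -0.0566 and -0.00682 with mouse B. With iBET with IC of mice A and B, mouse A gave 0.219 and 0.0533, and mouse B 0.187 and 0.0918. Mouse labels were taken as given and not tested. Members, lists, the consensus and tests were chosen with earlier results of these data known. Gene positions are from GENCODE vM21. Named pathway genes are at most 2 per direction with the lowest p, all subunits excepted, and 1 gene that this names is not reported here. For gene likeness, a mean count of 50 was required.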

Additional observations from a re-analysis of the deposited data

How the results depend on the processing

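None of the 21 called effects of the 10 genes changed sign in any of 26 other settings. With IC in DMSO, 7 genes passed with 1 surrogate variable and 1 (Tnfaip3) with the compared groups alone fitted. With IC in iBET, 7 passed in DESeq2, in DESeq2 with the mouse as a block, with 1 surrogate variable and with the compared groups alone fitted. With the mouse as replicate block in edgeR the counts were 5 and 5 for IC in DMSO and in iBET, 7 and 7 for iBET with Ova and with IC, and 0 for the difference, and the block altered no calls beyond those of Nfkbib and Tnip1 given above. Leaving out 1 library gave 4 to 4, 2 to 6, 6 to 7, 6 to 7 and 0 to 0 genes for these 5 comparisons, and leaving out 1 mouse gave 0 to 4, 0 to 6, 3 to 6, 3 to 7 and 0 to 0. The low counts came without mouse B, where 0 genes of the whole table passed for IC in either arm (140 and 40 with all mice) although the log2 rises of Nfkbia, Nfkbie, Tnfaip3 and Tnip1 in DMSO were still 1.03, 0.82, 1.25 and 0.93, and where Nfkbie, Nfkbiz and Tnip3 still passed for iBET with Ova and Nfkbie, Nfkbiz and Tnip1 for iBET with IC. Without mouse C, Nfkbia and Tnfaip3 passed for IC in DMSO. For IC in iBET, the 2 genes that passed without mouse B of iBET with Ova, or of iBET with IC, were Tnfaip3 and Tnip3. The cause of the low counts without mouse B was not tested. The whole-table counts for IC in DMSO and in iBET were 159 and 305 without mouse A, ran from 45 to 123 and from 12 to 56 on leaving out 1 library, and from 5 to 504 and from 33 to 177 over the settings that left out no mouse or single library or combined the block with leaving out the shallow one.

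Differences near 0 changed sign. The Nfkbie difference between IC responses was 0.0064 in DESeq2, 0.0057 with DESeq2 size factors, 0.0048 with no filter, 0.0013 with the replicate block in edgeR, 0.0074 with it in DESeq2, 0.0072 in limma on the deposited normalized counts, 0.0132 without Rn45s, and 0.0714 with the block and without the shallow library, a setting chosen after seeing the data. On leaving out a library or a mouse it ran from -0.0979 to 0.1685, that of Nfkbid from -0.1497 to 0.3783, and the Cyld difference with IC in DMSO from -0.0133 to 0.1207. Bcl3 could not be fitted where at least 10 counts were required in every library.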

Other observations

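Among 18 genes of the IKK complex and its upstream signalling, Ikbke, which encodes the IKK-related kinase IKK-epsilon, was the one gene that rose with IC in DMSO (0.83 on the log2 scale, adjusted p = 0.00583), and none passed with IC in iBET. There Ikbke differed by 0.32 (adjusted p = 0.549). Its 2 IC responses differed by -0.50, which did not pass, so no difference between them was shown. Of all genes, 0.732% rose with IC in DMSO and 0.314% in iBET. With iBET, 6 of the 18 rose and 3 fell under Ova, and 5 rose and 4 fell under IC, beside 17.1% of all genes higher and 14.2% lower under Ova and 19% and 15.8% under IC. Ikbke fell by log2 differences of -0.63 with Ova and -1.14 with IC. Map3k14, the kinase NIK of the non-canonical pathway, rose by 0.81 and 0.74, and Bcl10, an adaptor upstream of IKK, by 0.57 and 0.54.

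A further list held 13 genes of the A20 complex, the linear ubiquitin ligase, other deubiquitinases and substrate receptors of the ligase that marks IkB proteins. None passed with IC in DMSO or in iBET by edgeR's test. Of all genes, 1.22% and 0.349% passed in these comparisons. With iBET, 1 of the 13 rose and 1 fell under Ova, and 2 rose and 2 fell under IC. Of all genes, 17.1% rose and 14.2% fell under Ova, and 19% rose and 15.8% fell under IC. Fbxw11, a substrate receptor of the ligase that marks IkB proteins, rose with iBET by 0.32 with Ova and 0.36 with IC. Usp18, an interferon-induced protease, fell by log2 differences of -0.93 and -0.77. Tnip2, which encodes ABIN-2, fell under IC (-0.95, adjusted p = 0.0176).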
